A study of Mus musculus with 8 samples.

Results

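The neurotrophic factors and receptors described here are 9 genes, found by symbol among the 33696 genes counted in each library. They were the ligands Bdnf and Ntf3, the receptors Ntrk2 (TrkB), Ntrk3 (TrkC) and Ngfr (p75), the GDNF family receptors Gfra1, Gfra2 and Ret, and Cntfr, the receptor subunit that binds ciliary neurotrophic factor. All 9 had reads in all 8 libraries. Transcript levels were followed over retinal cell classes and over types of retinal ganglion cell (RGC), and were then compared between genotypes.

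BDNF signals mainly through TrkB and NT-3 mainly through TrkC, receptor tyrosine kinases that promote survival and growth of neurons, while p75 binds all neurotrophins, their unprocessed precursors included. GDNF family ligands bind a GFRα co-receptor held at the cell surface by a lipid anchor, and the pair then engages the shared kinase RET. CNTFR has no signalling domain of its own and works with LIFR and gp130, the product of Il6st. In the retina these systems are studied because injured RGCs respond to BDNF and CNTF, and because Müller glia can relay such signals to neurons.

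Nuclei came from female mice at postnatal day 120 and were sorted with antibodies against NeuN and RBPMS to enrich RGCs, then profiled on a droplet platform for single-nucleus RNA sequencing (snRNA-seq), which reads the 3′ ends of transcripts and tags each captured molecule with a unique molecular identifier (UMI). The study asked what follows when the mechanically gated ion channel Piezo2 is removed from the oligodendrocyte lineage. Control mice were Piezo2f/f (4 libraries, replicates 1 to 4) and cKO mice were Olig2-cre;Piezo2f/f (4 libraries, replicates 10 to 13). Both groups thus carried floxed Piezo2 and only the cKO carried Cre, driven by Olig2. Cre was placed within the Olig2 gene, and the paper calls these cKO mice heterozygous for Olig2, so the groups also differ in Olig2 copies. A library pooled 6 retinae. Nothing in the labels ties a library to single animals. The p-values here set a difference against the spread between libraries, which the fits estimate in part from all genes together.

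Libraries held 35697629 to 60088630 UMIs, and 34891 nuclei were kept (15875 control, 19016 cKO; 2210 to 5313 per library). Any pair of libraries shared 0 to 11 barcodes. Classes were gated by the UMIs of marker genes and not by clustering, and the gates held 19914 RGC, 2785 amacrine, 1637 bipolar, 942 rod, 442 cone, 199 horizontal and 1392 Müller glia nuclei. Horizontal nuclei exceeded 10 in only 5 libraries (control 1 and 4; cKO 10, 11 and 13), with 183 nuclei, and these 5 were used. Astrocyte, microglia, endothelial and pericyte gates held 3 to 8 nuclei each and the oligodendrocyte gate held 0. Which nuclei descend from cells with Cre was not measured. In RGC nuclei Piezo2 was at 12.0 to 18.7 CPM (UMIs of the gene per 1000000 UMIs of the gate in a library) in controls and 8.59 to 15.2 CPM in cKO. The RGC marker list was at 2101 to 2524 CPM in the RGC gate and at 389 to 703 CPM in the rod gate. In the Müller glia gate the Müller list was at 5942 to 8363 CPM. The endothelial list also reached 1681 to 2114 CPM there, nearly all of it Flt1 (1676 to 2100 CPM), while the endothelial marker Cdh5 had no UMI.

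Every level below sums all transcript forms of a gene, since the deposited counts give a single number per gene. The annotation holds 8 distinct stop codons over 30 coding transcripts for Ntrk2, 3 for Ntrk3, 4 for Gfra2, 2 for Ret and 3 for Cntfr, and 1 for each of the other genes. The consensus ends of Ntrk2 are shown because only some of its forms hold the kinase. Ntrk2 (ENSMUSG00000055254, GRCm39 chr13:58954176-59281784, plus strand) is known to encode a full-length kinase receptor and a truncated receptor without a kinase. The GENCODE M39 annotation lists 10 consensus coding transcripts that stop early and 4 that stop near the far end of the gene. The last 36 coding bases of these consensus forms, 5′ to 3′ with the stop codon in capitals, show that the reading frames end in unrelated sequence.
Ntrk2-204 (longest coding sequence with this end 1431 bases, stop codon at chr13:59079872-59079874): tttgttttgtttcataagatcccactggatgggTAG
Ntrk2-207 (longest coding sequence with this end 2466 bases, stop codon at chr13:59276165-59276167): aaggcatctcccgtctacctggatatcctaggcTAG
The Ntrk2 levels cannot say which of its forms a class expresses.

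The other genes lie on GRCm39 at chr7:77825707-78387760 (Ntrk3, ENSMUSG00000059146, minus strand), chr11:95459638-95478561 (Ngfr, ENSMUSG00000000120, minus), chr2:109505045-109557475 (Bdnf, ENSMUSG00000048482, plus), chr6:126078375-126143873 (Ntf3, ENSMUSG00000049107, minus), chr19:58223212-58444346 (Gfra1, ENSMUSG00000025089, minus), chr14:71127472-71217280 (Gfra2, ENSMUSG00000022103, plus), chr6:118128706-118174769 (Ret, ENSMUSG00000030110, minus) and chr4:41657498-41697089 (Cntfr, ENSMUSG00000028444, minus). Antisense genes of the count table overlap Ntrk2 (Gm47423 and 4930415C11Rik), Ntrk3 (4921513I08Rik and Gm9885), Bdnf (Gm45346) and Gfra1 (Gm16277), and Gm39038 overlaps Ntrk3 on its own strand. Whether counting used strand was not given in the sources used here, so the split of reads between these partners is uncertain.

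The classes divided these genes into sets with different homes. Bdnf, Ntrk3 and Ret were higher in RGCs than in amacrine, bipolar, rod, cone and Müller glia nuclei. Ntrk2 did not pass the test between RGC, amacrine, bipolar and horizontal nuclei and was lower in rods, cones and Müller glia. Ngfr and Cntfr were highest in Müller glia, and Gfra1, Gfra2 and Ret were all high in horizontal nuclei. Within each library, UMIs were summed over the nuclei of a class, and the sums were compared with those of RGC nuclei by edgeR's quasi-likelihood test with the library as a block. A call needed a Benjamini-Hochberg adjusted p under 0.05 over all genes tested and an absolute log2 fold change over 0.5. Of 47 member tests that passed the filter on low counts, 36 were called, 13 higher and 23 lower than RGC, against 43% of tests over all genes. The 13 include 1 call of Ntf3 and 4 of Ngfr. These 2 genes passed the filter only in comparisons where the other class was higher, so their calls are not read as tests. Summed counts cannot tell fewer transcribing nuclei from less RNA per nucleus.

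**Figure D1:**
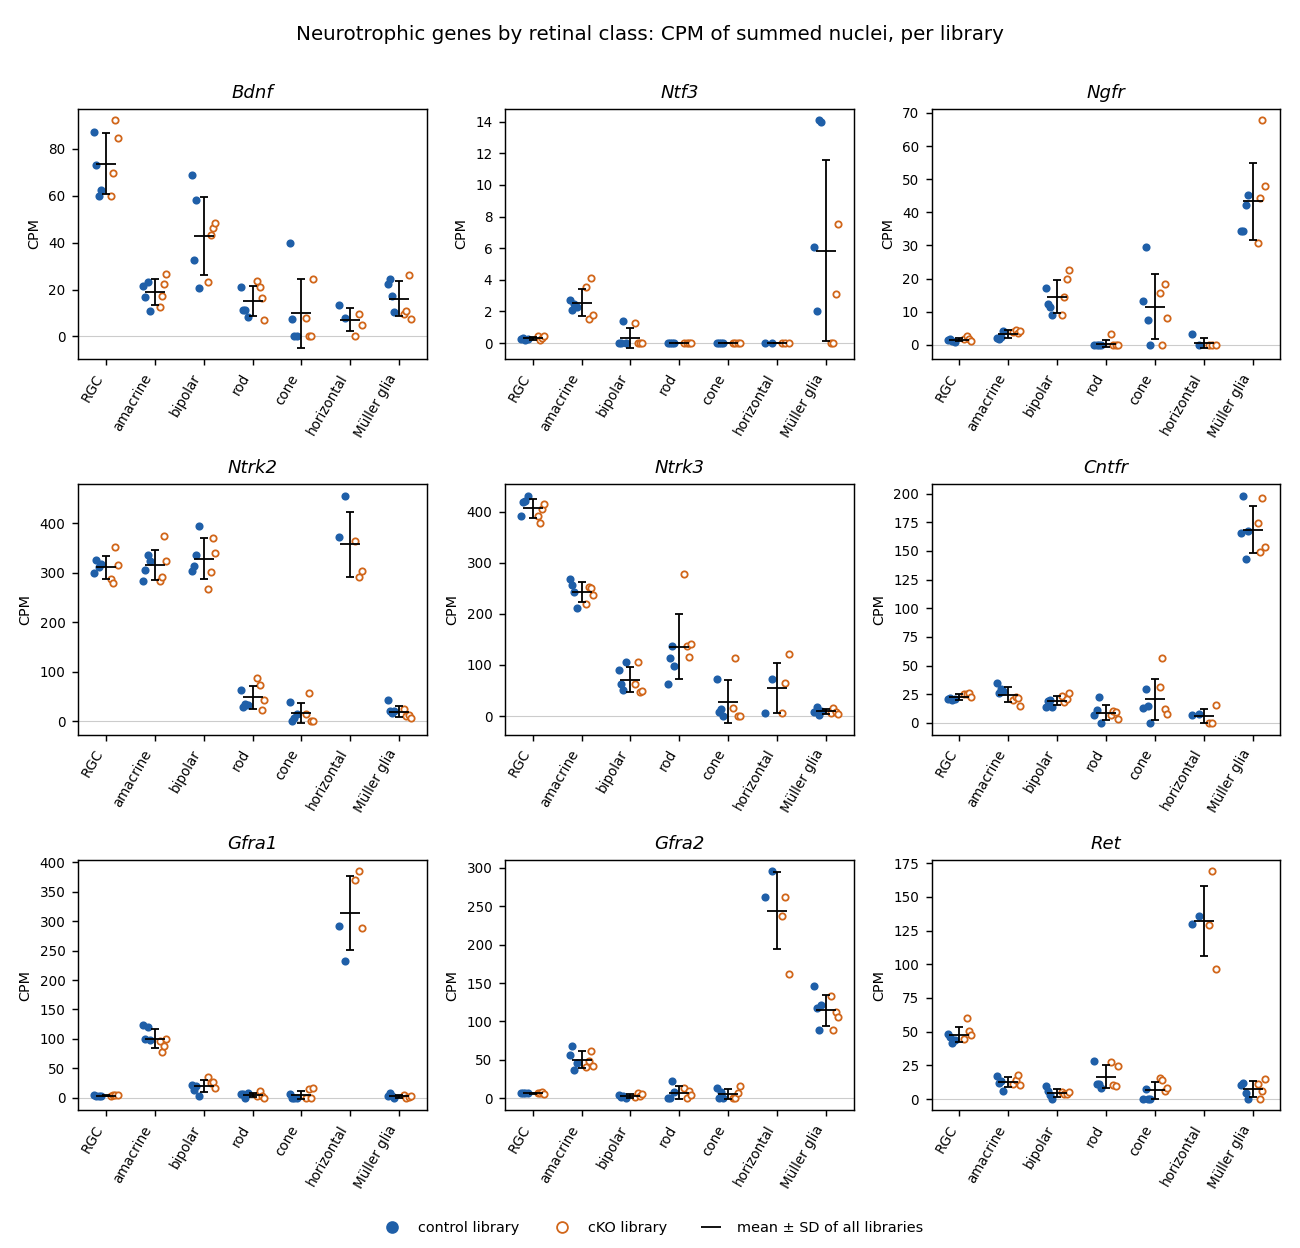
CPM (vertical axis, linear, a separate scale for each gene) of the 9 genes in 7 retinal classes (horizontal axis). Each point is the summed nuclei of 1 library, filled for control and open for cKO, and the bars give the mean ± SD over libraries. Bdnf and Ntrk3 stand highest in RGC, Ngfr and Cntfr in Müller glia, and the 3 GDNF family receptors in horizontal nuclei, while control and cKO points intermingle in most columns.

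Among the ligands, Bdnf in RGC nuclei was at 87.1, 73.2, 59.6 and 62.2 CPM in control libraries 1 to 4 and at 59.8, 69.7, 92.2 and 84.7 CPM in cKO libraries 10 to 13 (mean 73.6 ± 13.0 CPM, SD, n = 8). High and low libraries occurred in both genotypes. Bipolar nuclei followed with 42.6 ± 16.6 CPM (20.5 to 68.6), below RGC nuclei of the same library in 8 of 8 (log2 -0.82, SE 0.12, edgeR adjusted p = 3.87e-08). Amacrine (18.9 ± 5.43), Müller glia (16.1 ± 7.36) and rod nuclei (15.0 ± 6.42 CPM) were lower still, with log2 fold changes of -2.02, -2.25 and -2.67 against RGC. A Bdnf UMI was found in 31.8% of RGC nuclei, 11.3% of bipolar nuclei and 3.81% of Müller glia nuclei, at median depths per library of 4903 to 11099, 2072 to 4072 and 1822 to 3769 UMIs. With every nucleus thinned to 2000 UMIs, which kept 19750 RGC, 1332 bipolar and 1072 Müller glia nuclei of at least that depth, the shares were 12.0%, 7.96% and 2.33%.

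Ntf3, which encodes NT-3, was sparse throughout. Müller glia had 22 UMIs (5.85 ± 5.70 CPM, SD, n = 8; 0 in cKO 10 and 11), amacrine nuclei 45 (2.56 ± 0.882 CPM, every library above 0) and RGC nuclei 51 (0.305 ± 0.107 CPM). Amacrine nuclei exceeded RGC nuclei in 8 of 8 libraries. Ntf3 passed the filter on low counts in this class comparison alone, where amacrine nuclei are high, so the difference is given as a description with no test. Rod, cone and horizontal nuclei had no Ntf3 UMI, which at a floor of 3 counts allows up to 1.99, 3.10 and 2.95 CPM (counting error only). These limits exceed the RGC level, so absence from those classes was not detectable at this depth.

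For the BDNF receptor, Ntrk2 in RGC nuclei was at 300, 326, 311 and 317 CPM in controls and at 287, 279, 351 and 316 CPM in cKO. Amacrine (315 ± 30.8 CPM), bipolar (328 ± 41.0) and horizontal nuclei (357 ± 65.4, n = 5) lay in the same range, with log2 fold changes against RGC of -0.06 (SE 0.033), 0.03 (SE 0.056) and 0.18 (SE 0.15), none of them called. Rods had 48.2 ± 23.9, Müller glia 19.6 ± 10.9 and cones 16.9 ± 20.9 CPM, with log2 fold changes of -3.08, -4.08 and -4.87 (SE 0.20, 0.13 and 0.24; edgeR adjusted p of 1.54e-14, 7.91e-39 and 4.66e-89). Single cone libraries ran from 0 to 56.8 CPM, a spread that the cone p does not reflect. An Ntrk2 UMI was found in 84.0% of RGC and 73.8% of amacrine nuclei and in 3.74% of Müller glia nuclei.

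Ntrk3, the NT-3 receptor, was graded where Ntrk2 was flat. RGC nuclei had 391, 420, 420 and 431 CPM in controls and 391, 379, 405 and 415 CPM in cKO, and amacrine nuclei had 212 to 268 CPM, below every RGC value (log2 -0.83, SE 0.042, edgeR adjusted p = 2.68e-16). Rods (135 ± 63.5 CPM), bipolar (71.4 ± 24.7), horizontal (54.6 ± 48.7), cone (28.1 ± 42.2) and Müller glia nuclei (9.53 ± 5.33 CPM) were lower, with log2 fold changes of -1.97, -2.62, -3.25, -4.46 and -5.71. Rods and bipolar nuclei did not pass as neighbours in this order. The highest rod library was cKO 10, at 279 CPM against 62.7 to 141 CPM in the other 7, and the RGC marker list in rod nuclei was at 389 to 703 CPM, whose part in the Ntrk3 level was not tested.

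Ngfr, whose product p75 pairs with Trk receptors or with sortilin, was highest in Müller glia, where Ntrk3 was lowest. Müller glia had 34.4, 34.4, 42.3 and 45.3 CPM in controls and 30.7, 44.2, 67.9 and 47.9 CPM in cKO, and RGC nuclei 0.989 to 2.68 CPM, so that the classes were far apart in every library. Bipolar (14.5 ± 4.96 CPM) and amacrine nuclei (3.31 ± 1.09) were above RGC nuclei in 8 of 8 libraries, and cone nuclei (11.6 ± 9.90) in 6 of 8. Ngfr passed the filter on low counts only in these 4 class comparisons, where the other class was higher. The differences are therefore given as a description with no test. The cone value rests on 13 UMIs, with 0 in control 4 and cKO 11. Rods and horizontal nuclei had 1 Ngfr UMI each.

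The GDNF family receptors met in horizontal nuclei. There Gfra1, the co-receptor that prefers GDNF, was at 292 and 232 CPM in control 1 and 4 and at 370, 385 and 289 CPM in cKO 10, 11 and 13. Gfra2, which prefers neurturin, was at 262 and 296 CPM in controls and at 237, 263 and 162 CPM in cKO, and Ret was at 130 and 136 CPM in controls and at 129, 169 and 96.3 CPM in cKO. Every one of these values lay above all RGC libraries, which had 2.47 to 4.46 (Gfra1), 5.74 to 7.37 (Gfra2) and 41.2 to 59.97 CPM (Ret). The log2 fold changes were 6.33 (SE 0.17, edgeR adjusted p = 4.53e-37), 5.15 (SE 0.18, 5.99e-32) and 1.36 (SE 0.17, 1.96e-09), over 5 libraries with 183 nuclei.

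Outside horizontal nuclei the co-receptors and the kinase were highest in different classes. Amacrine nuclei had Gfra1 at 124, 99.5, 121 and 98.7 CPM in controls and 95.9, 77.4, 88.4 and 99.9 CPM in cKO, with Gfra2 at 50.1 ± 10.9 and Ret at 12.8 ± 3.70 CPM. Against RGC these were log2 4.70 (SE 0.09) and 2.85 (SE 0.096) higher for the co-receptors and -1.997 (SE 0.094) for Ret (edgeR adjusted p of 2.07e-26, 1.51e-20 and 4.85e-17). Müller glia had Gfra2 at 114 ± 19.9 CPM (88.5 to 146; log2 3.98, SE 0.13, edgeR adjusted p = 1.33e-38) but Gfra1 at 2.69 ± 2.62 and Ret at 7.43 ± 5.63 CPM. RGC nuclei showed the opposite arrangement, with Ret at 48.0, 46.0, 41.2 and 44.1 CPM in controls and 44.3, 59.97, 50.1 and 47.9 CPM in cKO and both co-receptors in single digits.

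Nuclei were therefore split by whether a co-receptor UMI was present. Of 19914 RGC nuclei, 442 (2.22%) had a Gfra1 UMI, 873 (4.38%) a Gfra2 UMI and 18619 (93.5%) neither. Ret was at 30.0 ± 6.50 CPM in the first set, 59.7 ± 15.98 CPM in the second and 47.8 ± 5.64 CPM in RGC nuclei with neither (SD, n = 8 libraries). In amacrine nuclei Ret was at 18.8 ± 8.38 and 20.3 ± 8.85 CPM with a Gfra1 or Gfra2 UMI and at 9.06 ± 1.70 CPM with neither, and in 80 of 183 horizontal nuclei (43.7%) both co-receptors were detected together. Nuclei with a UMI of any gene tend to be deeper, so these levels are a description and no test was run on them.

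Cntfr was highest in Müller glia but not confined to them. Müller glia had 166, 198, 143 and 167 CPM in controls and 175, 149, 196 and 154 CPM in cKO, above every other class and library (log2 2.75 against RGC, SE 0.089, edgeR adjusted p = 3.45e-38). Amacrine (24.8 ± 6.28 CPM), RGC (22.8 ± 2.43), cone (20.8 ± 17.9) and bipolar nuclei (19.4 ± 4.16) lay close together, and none of the other 3 was called against RGC. Rods (8.99 ± 6.76) and horizontal nuclei (5.97 ± 6.35) were called lower from 12 and 6 UMIs, calls lost in 4 and in 1 of 16 alternatives (largest edgeR adjusted p = 0.248 and 0.103). The partner gene Il6st was at 115 ± 31 CPM in Müller glia against 32.3 ± 2.7 CPM in RGC nuclei.

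The order of classes was tested between neighbours for each gene by exact paired sign-flip tests over libraries (two-sided, adjusted over 51 neighbouring pairs). In all, 16 pairs differed, 13 of them at the smallest p that 8 libraries allow (0.00781, adjusted p = 0.0306). With other choices of nuclei 0 pairs differed under the order-of-magnitude step alone, and 8 under stricter gates or either thinning, and with any 1 library left out 0 could be shown. RGC stood above the next class for Bdnf (bipolar) and Ntrk3 (amacrine), and Müller glia stood above the next class for Ngfr (bipolar) and Cntfr (amacrine). For Gfra2, Müller glia stood above amacrine nuclei. No pair with horizontal nuclei could pass, since 5 libraries cannot go below an exact p of 0.0625, so the place of horizontal nuclei above amacrine nuclei for Gfra1, Müller glia for Gfra2 and RGC nuclei for Ret was not shown by these tests (adjusted p = 0.145 each). The edgeR test compared horizontal nuclei with RGC nuclei alone, and there Ret was not called with nuclei thinned to 2000 UMIs before gating (log2 1.05, edgeR adjusted p = 0.108). For Ntrk2 the order horizontal, bipolar, amacrine, RGC had no neighbours that differed, and for Bdnf no neighbours below amacrine nuclei differed.

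Free RNA in the droplets was measured because it can carry a gene into classes that do not transcribe it. Empty droplets held Ntrk2 at 117 and Ntrk3 at 110 CPM, below their levels in RGC nuclei. They held Bdnf at 95.4, Ret at 95.2, Cntfr at 54.8, Gfra2 at 40.7, Gfra1 at 22.8, Ngfr at 15.3 and Ntf3 at 1.64 CPM, each above its level in RGC nuclei. The level of rod markers in a gate, relative to empty droplets, gave the share of free RNA, 3.23% in RGC nuclei (1.93 to 4.58%), 4.38% in amacrine, 8.75% in bipolar and 11.4% in Müller glia nuclei. For rods and cones RGC markers gave 12.1% and 7.58%. These shares are upper values where a gate holds mixed nuclei, since any true rod RNA counts as free RNA.

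At these shares free RNA would supply 3.09 CPM of the 73.6 CPM of Bdnf in RGC nuclei, and the measured level was above the estimate in 8 of 8 libraries. In Müller glia the measured Ngfr, Gfra2 and Cntfr were 24.9, 24.9 and 27.0 times the estimate, in 8 of 8 libraries each. Cntfr was 12.9 times the estimate in RGC and 10.3 times in amacrine nuclei, and Ret in amacrine nuclei 3.06 times. These 3 were also above the estimate in 8 of 8 libraries. Bdnf, Ntrk2, Gfra1, Ntrk3 and Ret in Müller glia were 1.46, 1.497, 1.06, 0.758 and 0.682 times it, so their levels there were at or near the free-RNA background and are not read as expression. The same held for Gfra2 and Ret in bipolar nuclei (0.883 and 0.557 times) and for Bdnf, Ret, Gfra2 and Cntfr in rods (1.28 to 1.49 times). Rod Ntrk3 was 10.2 times the estimate and rod Ntrk2 3.43 times, each above it in 8 of 8 libraries. The estimate uses empty-droplet levels, and both genes were higher in RGC nuclei than there. These ratios therefore cannot tell rod expression from RNA of RGC nuclei in the rod gate, whose part was not tested.

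**Figure D2:**
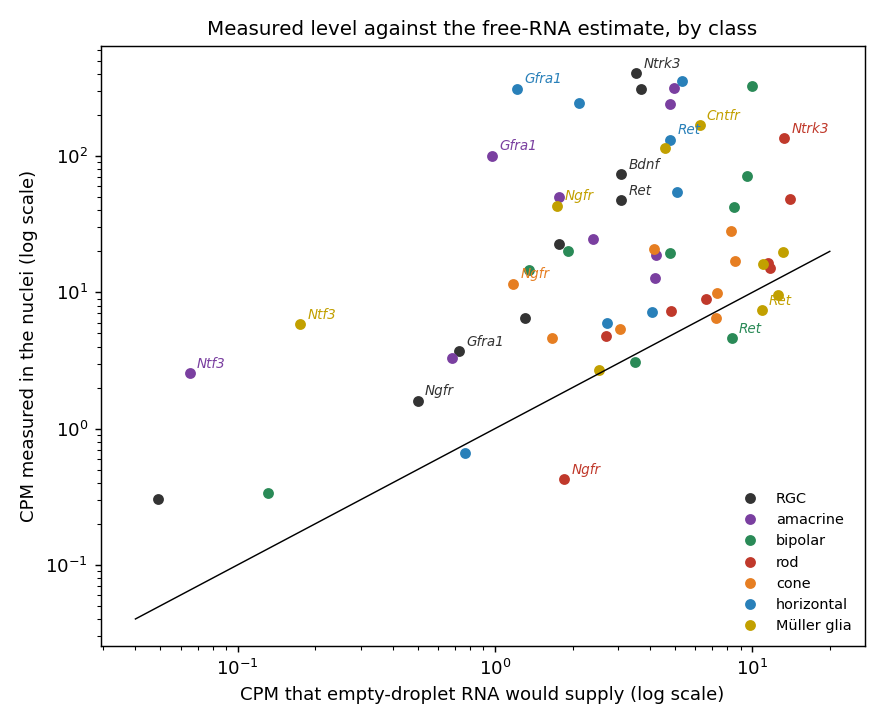
Mean CPM measured in the nuclei of each class (vertical axis, log scale) against the CPM that free RNA would supply (horizontal axis, log scale), 1 point per gene and class, coloured by class. Ntf3 in rod, cone and horizontal nuclei, measured at 0, is not drawn. The line marks equality; Ret in Müller glia and bipolar nuclei lies below it, while Bdnf in RGC nuclei (73.6 against 3.09 CPM) and Gfra1 in horizontal nuclei lie far above.

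RGC types were then gated within the RGC nuclei by genes known to mark types. Of 9 gates, those described are called by their gate genes: Opn4/Eomes (444 nuclei), Cartpt (with Mmp17, 1175), Spp1/Kcng4 (557), Foxp2 (2213), Tbr1 (626), Zic1 (226), Chrm2/Ppp1r1c (546) and Piezo2 (1334). A nucleus could be in more than 1 gate. The largest overlap was 259 nuclei of Chrm2/Ppp1r1c and Piezo2 (47.4% and 19.4% of these gates), and 91 nuclei were in both Opn4/Eomes and Spp1/Kcng4 (20.5% and 16.3%). Each was compared with RGC nuclei of the same library that had no UMI of its gate genes. Of 66 member tests over the 9 gates 25 were called, 8 higher and 17 lower, against 11.6% of tests over all genes. The Cartpt and Spp1/Kcng4 gates differed from other RGCs in 5 and 4 of the 9 genes, and Ntf3 was too sparse for any type test. The 25 calls and the 4 genes include Ngfr in Spp1/Kcng4 nuclei, which passed the filter on low counts through the gate where it is high. The 25 calls also include Gfra1 in Zic1 nuclei, which passed the filter only through the other RGC nuclei.

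Cartpt nuclei, a gate that holds direction-selective RGCs by its known markers, had the lowest Ntrk3 of all types. Levels were 78.6, 70.4, 79.0 and 54.2 CPM in controls and 66.2, 88.2, 84.4 and 92.3 CPM in cKO, against 420 to 489 CPM in other RGC nuclei. The ranges were far apart, and the log2 difference came to -2.60 (SE 0.058, edgeR adjusted p = 1.96e-31). An Ntrk3 UMI was found in 24.9% of Cartpt nuclei and 76.8% of all RGC nuclei, at median depths of 6521 to 12574 and 4903 to 11099 UMIs, and in 9.02% and 49.3% once every nucleus was thinned to 2000 UMIs. Ntrk2 in the same nuclei was at 285 to 352 CPM and did not pass the test (log2 0.03, SE 0.035).

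The same gate had the highest Bdnf. Levels were 132, 130, 118 and 127 CPM in controls and 135, 96.4, 158 and 140 CPM in cKO, against 52.9 to 80.4 CPM in other RGC nuclei. Every Cartpt value lay above every other value (log2 0.95, SE 0.06, edgeR adjusted p = 1.22e-16). Gfra2 was also higher (10.9 ± 2.51 against a mean of 4.96 CPM, log2 1.09, SE 0.16), and Cntfr and Gfra1 were lower (log2 -0.68, SE 0.11, and -1.36, SE 0.32). The share of all genes called in this gate was 11.3%.

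Spp1/Kcng4 nuclei, whose gate genes mark alpha RGCs, had the highest Ngfr of the RGC types, with 99 of the 264 Ngfr UMIs of all RGC nuclei. Opn4/Eomes nuclei, of which 91 are also in this gate, came next. Their mean was 4.80 CPM against 1.37 CPM in other RGC nuclei, higher in 7 of 8 libraries. Levels in Spp1/Kcng4 nuclei were 8.11, 16.3, 9.004 and 4.30 CPM in controls and 5.16, 13.7, 9.83 and 8.56 CPM in cKO, from 3 to 29 UMIs. Other RGC nuclei had 0.303 to 1.45 CPM. Ngfr passed the filter on low counts in only 3 of 9 type comparisons, and here through the gate where it is high. The Ngfr difference is therefore given as a description with no test. Gfra1 was at 18.9, 12.3, 23.4 and 12.9 CPM in controls and 10.3, 18.5, 19.2 and 10.7 CPM in cKO, against 1.81 to 3.30 CPM (log2 2.62, SE 0.19, edgeR adjusted p = 9.38e-18). For both genes the lowest Spp1/Kcng4 library was above the highest of the other RGC nuclei. Gfra2 and Ret were lower in this gate (log2 -1.59, SE 0.30, and -0.62, SE 0.085), so that Gfra1 and its kinase differed in opposite directions.

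Marker lists of other classes were read on both sides. In Spp1/Kcng4 nuclei the Müller glia list was at 89.2 to 167 CPM (88.9 to 167 in other RGC nuclei) and the amacrine list at 15.1 to 32.4 CPM (19.97 to 36.7). The horizontal list was at 159 to 232 CPM against 177 to 190 CPM. The astrocyte list of 4 genes was higher, at 15.7 to 45.0 against 8.75 to 12.8 CPM, and its part in the Ngfr level was not tested. This gate was also the deepest, with medians of 10937 to 24374 UMIs, and 24% of all genes were called in it, the most of any type.

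**Figure D3:**
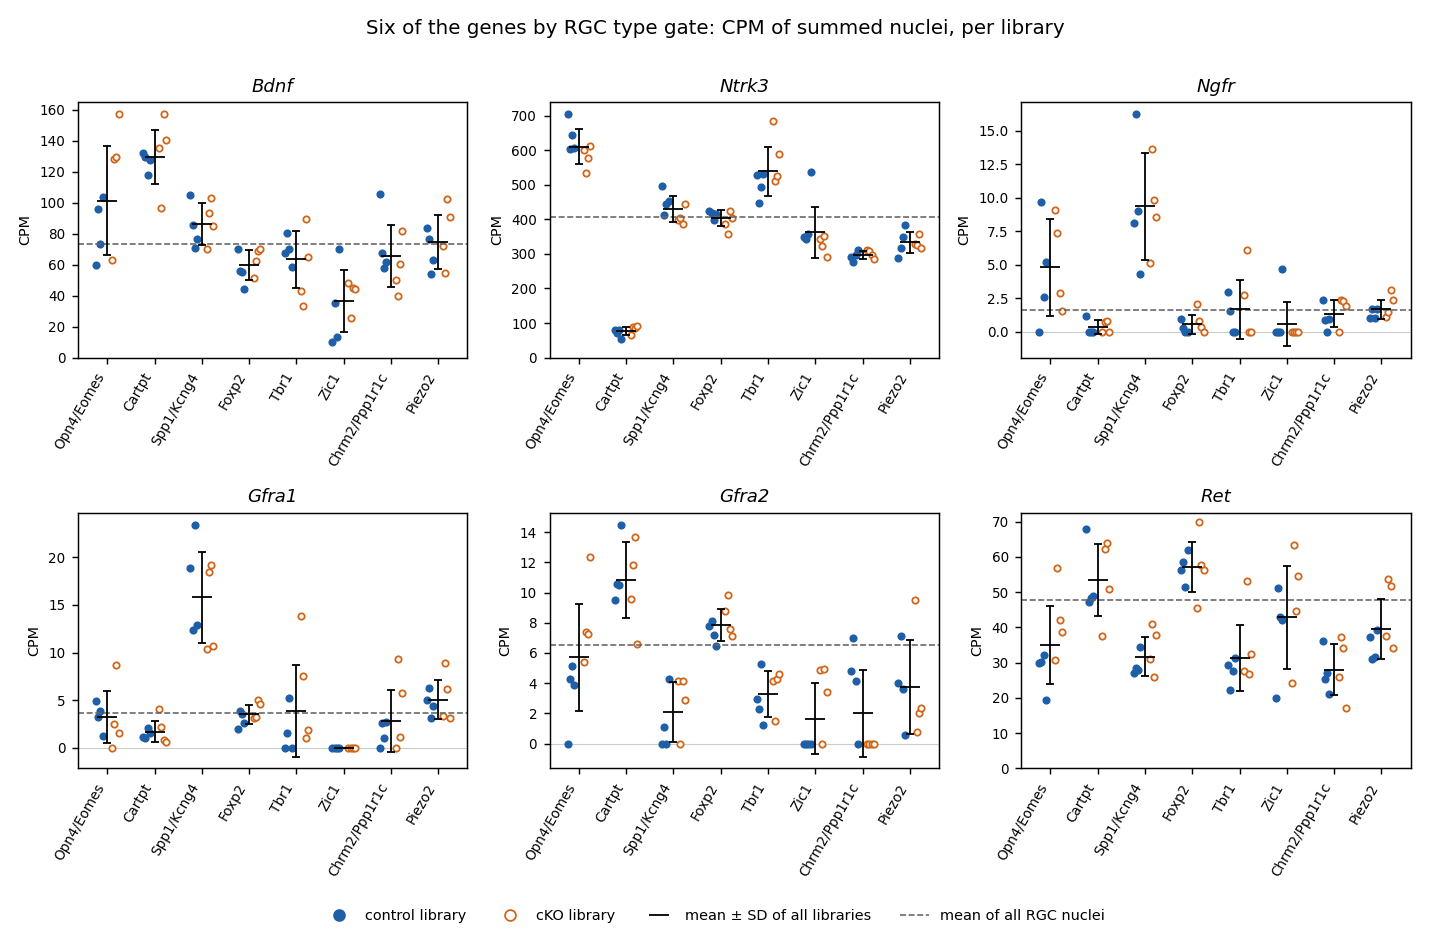
CPM (vertical axis, linear, a separate scale for each gene) of Bdnf, Ntrk3, Ngfr, Gfra1, Gfra2 and Ret in 8 RGC type gates (horizontal axis). Points are libraries, filled for control and open for cKO, bars give the mean ± SD, and the dashed line is the mean over all RGC nuclei. Cartpt nuclei lie at 54.2 to 92.3 CPM for Ntrk3, under every other gate, and Spp1/Kcng4 nuclei lead for Ngfr and Gfra1.

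Other types differed in fewer members. Opn4/Eomes nuclei, the gate of melanopsin RGCs, had Ntrk3 at 533 to 706 CPM against 367 to 416 CPM (log2 0.61, SE 0.049, edgeR adjusted p = 1.26e-16), and Bdnf was higher in 7 of 8 libraries (log2 0.54, SE 0.091). Tbr1 nuclei had Ntrk3 at 448 to 683 CPM, above other RGC nuclei (373 to 427 CPM) in every library, though the log2 difference, 0.43 (SE 0.053, edgeR adjusted p = 2.42e-08) was under the size a call needs. Chrm2/Ppp1r1c nuclei had less Ntrk3 (276 to 311 against 402 to 464 CPM; log2 -0.50, SE 0.045), a call at the very edge of the size rule, and less Ret (log2 -0.88, SE 0.11). Piezo2 nuclei, gated on a single UMI of the targeted gene, were called lower in Gfra2 (log2 -0.74, SE 0.25, edgeR adjusted p = 0.0441), with 5.68% of all genes called. Ntrk3 (log2 -0.27, edgeR adjusted p = 5.30e-08, lower in 8 of 8 libraries) and Ret (log2 -0.25, edgeR adjusted p = 0.00867, lower in 7 of 8) passed the p threshold there and missed the size threshold.

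Bdnf was low in Zic1 nuclei, under other RGC nuclei in 7 of 8 libraries (36.5 ± 19.9 against a mean of 74.3 CPM; log2 -0.98, SE 0.17, edgeR adjusted p = 1.19e-07), from 72 UMIs. Gfra1 had no UMI among 1925290 in Zic1 nuclei. A floor of 3 counts over the group puts it under 1.56 CPM, at least 2.39-fold lower than the 3.72 CPM of the pooled other RGC nuclei. This bound covers counting error only and not the spread between libraries. Gfra1 passed the filter on low counts only through the other RGC nuclei, so its call is not read as a test. With no doublet removal Gfra1 was not called there (log2 -0.56, edgeR adjusted p = 0.729), nor was it by DESeq2 (adjusted p = 0.145).

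Gfra2 varied most often between types, called in 8 of 9. It was higher in Cartpt and Foxp2 nuclei (7.85 ± 1.08 against a mean of 5.47 CPM in the latter, log2 0.53, SE 0.14) and lower in 6 types, among them Spp1/Kcng4, Tbr1, Zic1, Chrm2/Ppp1r1c and Piezo2 nuclei (log2 -0.74 to -2.09). Its levels in these named types were only 1.65 to 3.76 CPM, and in Zic1 nuclei came from 3 UMIs. In Zic1 and Chrm2/Ppp1r1c nuclei Gfra2 was at 1.24 and 1.93 times the free-RNA estimate, above it in 3 of 8 libraries each. Ret, by contrast, was never called higher and was lower in Spp1/Kcng4, Tbr1 and Chrm2/Ppp1r1c nuclei (31.7, 31.3 and 28.0 CPM against 47.7 CPM over all RGC nuclei). Cntfr was called higher in Foxp2 nuclei (28.9 ± 6.45 against a mean of 21.6 CPM, log2 0.51, SE 0.08).

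Ntrk2 was called in none of 9 types. Its log2 fold changes ran from -0.15 to 0.17 and its means from 278 CPM in Spp1/Kcng4 to 351 CPM in Opn4/Eomes nuclei. Adjusted p-values reached 3.79e-05 by edgeR in Foxp2 nuclei (log2 0.14, SE 0.027), so small differences passed the p threshold and missed the size threshold.

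Calls did not always survive small changes. The Gfra2 call was lost in 7 of 15 alternatives in Piezo2 nuclei (largest adjusted p over all alternatives 0.258) and 6 of 15 in Tbr1 nuclei (0.620). It was lost in 5 of 13 in Zic1 nuclei (0.204) and 3 of 15 in Foxp2 nuclei (0.175). With a library left out, it was lost in Piezo2 nuclei without control 1, 3 or 4 or cKO 11, 12 or 13. The same happened in Tbr1 nuclei without control 2 or 4 or cKO 11. In Zic1 nuclei it happened without control 2, 3 or 4, and in Foxp2 nuclei without cKO 11. Cntfr in Foxp2 nuclei fell under the size rule or the p threshold in 7 of 16 alternatives, Ntrk3 in Chrm2/Ppp1r1c nuclei in 6 of 15 and Bdnf in Opn4/Eomes nuclei in 4 of 15. Ret in Tbr1 nuclei was not called in 2 of 15 (largest edgeR adjusted p = 0.331), and Gfra2, Cntfr and Gfra1 in Cartpt nuclei were each not called in 1 (0.139, 0.187 and 0.0790). The Ntrk3 and Bdnf differences of Cartpt nuclei and the Gfra1 difference of Spp1/Kcng4 nuclei were called in every alternative that could be run. Their log2 values were -3.13 to -2.43, 0.89 to 1.12 and 2.47 to 2.71.

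Other genes of the pathway, 73 in 5 lists, placed these results. Of 16 further receptors and co-receptors, 14 were tested in Müller glia, where 7 were higher and 6 lower than in RGC (median log2 0.37 against -0.11 over all genes, of which 54.6% were called). Osmr, the oncostatin M receptor, was at 63.4 ± 15 CPM in Müller glia and 0.145 ± 0.081 CPM in RGC nuclei. At that RGC level Osmr could pass the filter on low counts only through Müller glia. It is given as a description, and its place among the 7 higher receptors is no test. Among adaptors, Gab1 was higher in Müller glia (311 ± 29 against 12.3 ± 1.3 CPM in RGC, log2 4.51, SE 0.078). Of 12 further ligands at most 3 could be tested in any class against RGC. Nrtn, the GFRα2 ligand neurturin, was higher in bipolar nuclei (4.80 ± 3.0 CPM), and Clcf1, a CNTFR ligand, was at 18.2 ± 7.1 CPM in Müller glia. Nrtn is also given with no test, since so sparse a gene can pass the filter through the class where it is high.

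Pathway genes also split the RGC types. In Cartpt nuclei, beside the low Ntrk3, the sorting receptor Sorcs3 (18.2 ± 11 CPM; log2 -4.18, SE 0.11) and the prohormone convertase Pcsk2 (log2 -2.55, SE 0.054) were lower. Shc3, a Trk adaptor, Pcsk1 and Vgf, a BDNF-responsive gene, were higher (log2 1.49, 1.39 and 1.33), and 5 of 9 tested growth factor and activity targets were higher with none lower, against 4.76% of all genes higher and 6.56% lower. Foxp2 nuclei had little Pcsk1 (6.17 ± 2.3 CPM; log2 -3.06, SE 0.099). In Spp1/Kcng4 nuclei Lifr, the signalling partner of CNTFR, was at 57.9 ± 9.3 CPM (log2 1.46, SE 0.087) while 6 of 13 receptors and co-receptors were lower, against 12.5% of all genes.

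For each gene, the genes with the most similar pattern were found by Pearson's correlation of log2(CPM + 1) over 16 class and type means, among 10584 genes. These means share libraries and depth, and correlations are given with no test. Ntrk3 was most like Pcsk2 (r = 0.968) and Galntl6 (0.956), Bdnf like Gtpbp6 (0.958) and Garin2 (0.942), Gfra2 like Suco (0.955) and D630024D03Rik (0.919), and Gfra1 like Nr3c2 (0.912) and Mfn2 (0.907). Cntfr was most like Errfi1 (0.945) and Rilpl1 (0.937), Ret like Yars (0.927) and Mturn (0.912), Ngfr like Dennd2a (0.889) and Chd2 (0.886), and Ntf3 like Egfr (0.956) and Fgf13 (0.951). Ntrk2 was most like Ica1 (0.988) and Gm47423 (0.985), the latter an antisense gene inside Ntrk2 itself.

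Between genotypes, none of the 9 genes was called in any class or type. Of 30 member tests over 7 classes 0 were called (0.00174% over all genes), and of 47 over 9 RGC types 0 (0.00225%). Taken singly, the share of all genes called was 0.0131% in Müller glia and 0.0224% in Chrm2/Ppp1r1c nuclei. An unadjusted p under 0.05 was found in 5 and in 1 of these tests, and in 3.44% and 4.26% of the tests over all genes, and DESeq2 also made 0 member calls. The smallest edgeR adjusted p was 0.994 in classes and 0.908 in types. A p that misses the threshold does not show that levels were alike, so the fitted differences follow.

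In RGC nuclei, log2 fold changes of cKO over control were 0.07 (SE 0.15) for Bdnf, -0.08 (SE 0.094) for Ntrk2, -0.13 (SE 0.072) for Ntrk3 and 0.41 (SE 0.24) for Ngfr. They were 0.28 (SE 0.17) for Gfra1, -0.02 (SE 0.13) for Gfra2, 0.11 (SE 0.085) for Ret and 0.19 (SE 0.076) for Cntfr. The Bdnf value turned negative without cKO 12 or 13 and the Gfra2 value positive without control 4 or cKO 11 or 13, so neither has a direction. With 1 library left out in turn the others kept their sign, from 0.24 to 0.57 for Ngfr, 0.18 to 0.39 for Gfra1, 0.048 to 0.18 for Ret, 0.14 to 0.21 for Cntfr, -0.17 to -0.016 for Ntrk2 and -0.17 to -0.080 for Ntrk3, and none was called. In other classes the values farthest from 0 were for Ntrk3 in horizontal (0.98, SE 1.09) and rod nuclei (0.77, SE 0.34, unadjusted p = 0.0372) and for Gfra1 in bipolar nuclei (0.80, SE 0.36, unadjusted p = 0.0405). Gfra1 in amacrine nuclei was at -0.31 (SE 0.12, unadjusted p = 0.0176), and edgeR adjusted p-values of these were all 0.999 or above. The rod Ntrk3 value was 0.37 (SE 0.28, unadjusted p = 0.204) without cKO 10, the library at 279 CPM. The horizontal Ntrk3 value turned to -0.24 without control 1 or cKO 13, and so has no direction. Within RGC types the only unadjusted p under 0.05 was for Ret in Opn4/Eomes nuclei. Its log2 fold change was 0.54 (SE 0.25, unadjusted p = 0.0442, edgeR adjusted p = 0.990), the largest of the type tests. In Cartpt nuclei Ntrk3 (log2 0.19, SE 0.15) and Bdnf (0.02, SE 0.13) did not pass between genotypes. In Spp1/Kcng4 nuclei Ngfr (-0.21, SE 0.37) and Gfra1 (-0.16, SE 0.29) did not pass either. Ntf3 was too sparse for a genotype test.

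**Figure D4:**
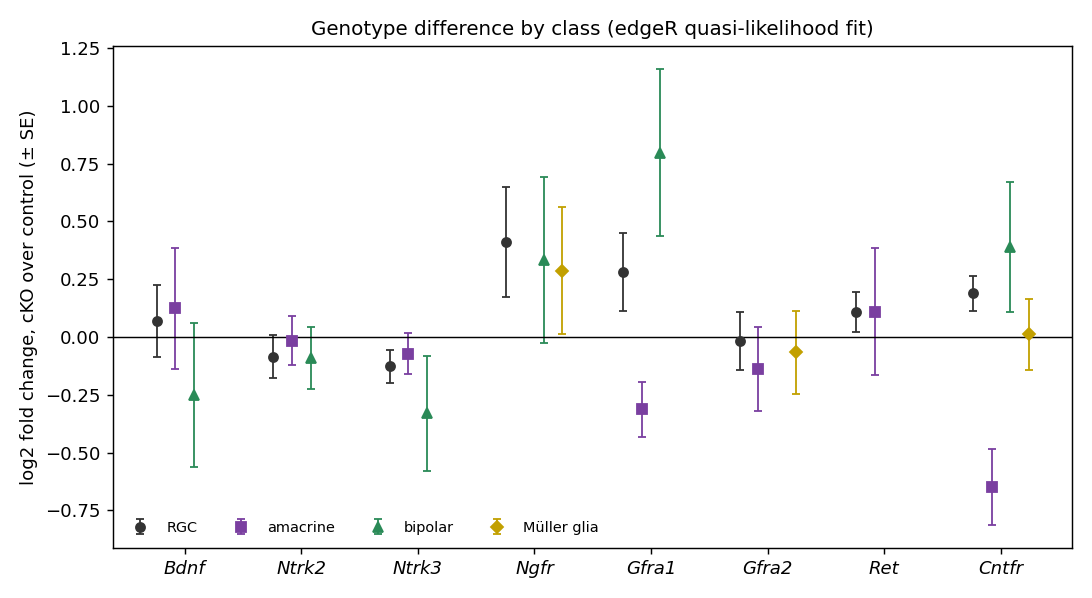
Fitted log2 fold change of cKO over control (vertical axis, edgeR, ± SE) for 8 genes (horizontal axis) in RGC, amacrine, bipolar and Müller glia nuclei, drawn where the gene passed the filter on low counts. Points above 0 are higher in cKO. None was called, and the point farthest below 0 is Cntfr in amacrine nuclei at -0.65 with an SE of 0.16.

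Cntfr in amacrine nuclei had the smallest p of any member between genotypes. It was at 35.0, 26.0, 30.0 and 27.8 CPM in controls and at 19.97, 22.6, 21.7 and 15.0 CPM in cKO, from 30 to 73 UMIs per library. On the log2 scale cKO differed by -0.65 (SE 0.16, unadjusted p = 0.00128, edgeR adjusted p = 1.00 over 12904 genes), and it was called in 0 of 15 alternatives (adjusted p 0.159 to 1.00). RGC nuclei went the other way, at 20.4 to 21.6 CPM in controls and 22.6 to 26.3 CPM in cKO (unadjusted p = 0.0292, edgeR adjusted p = 0.994). In amacrine nuclei the Müller glia list overlapped between genotypes (222 to 277 and 246 to 292 CPM), as did the RGC list (112 to 218 and 156 to 271 CPM).

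The difference between classes was itself tested as a class by genotype term against RGC. Of 50 member tests 0 were called (0.0546% over all genes), 5 with an unadjusted p under 0.05, which 4.09% of the tests over all genes had. For Cntfr in amacrine nuclei the term was -0.83 (SE 0.16, unadjusted p = 1.61e-05, edgeR adjusted p = 0.0687). It ran from -1.35 to -0.73 over 16 alternatives, with adjusted p of 0.00135 to 0.952, and was called in 1 of them, the fit without a filter on low counts. Gfra1 in amacrine nuclei had a term of -0.59 (SE 0.16, edgeR adjusted p = 0.520). The only Ntf3 terms that could be fitted, in amacrine nuclei and Müller glia, were not called. Of the wider pathway, 0 genes of the 5 lists were called between genotypes in any class or type.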

How the data were processed

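The files hold raw UMI counts for every barcode, deposited by the authors as gene by barcode matrices from Cell Ranger 7.0.0 on a GRCm39 reference. Whether introns were counted and strand was used was not given in the sources used here, and the study's own later cleaning of these counts is not part of them. From 12695972 barcodes, 45849 were called as nuclei by an order-of-magnitude step (10% of the 99th percentile of the top 8000 barcodes) plus a test against the empty-droplet profile (at least 500 UMIs, adjusted p under 0.001). Quality filters (200 genes, 5% mitochondrial UMIs, deviation from the median) removed 9586 and doublet scores 1372, which left 34891. Gates used summed marker UMIs, with minima set after marker UMI distributions were seen. A horizontal nucleus also needed a UMI of Lhx1 or Adra2a. Nuclei that passed both the horizontal and the amacrine gate were kept as horizontal. All other nuclei in more than 1 class gate were left out.

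Counts were summed per library and gate (over 10 nuclei and over 1000 UMIs) and tested with edgeR 4.0.16 (TMM, filterByExpr, quasi-likelihood) in R 4.3.3. Class and type comparisons had the library as a block. For cone nuclei against RGC and Zic1 nuclei against other RGC, p-values rested on the spread shared by all genes and not on the gene's own. A call took a Benjamini-Hochberg adjusted p below 0.05 together with a log2 difference beyond 0.5 in size. Alternatives were DESeq2 1.42.0, other normalisation, filters, nuclei, doublets, gates and depth, and leaving out each library. The scripts, in Python 3.11.15 with scanpy 1.11.5, were tested on simulated data.

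All 9 members are reported whether called or not, with the called pathway genes of largest fold (at most 10 per comparison) and the 2 most similar genes of at least 10 CPM each. Il6st was named after its values were seen. An RGC type gate and some pathway genes enter the counts but are not reported here. The members and lists were chosen with earlier results of these data known.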

Additional observations from a re-analysis of the deposited data

Results flagged for a closer look

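In 5 of 110 sets of 4 libraries of the same genotype, 1 library stood apart, with a gap to its nearest neighbour too wide for Dixon's test. The libraries of 8 RGC types and 7 classes were examined. Chance alone gives about 1 in 20 such sets, or 5%, so this number is near what chance gives. Only sets with at least 10 UMIs of the gene in each library were examined.

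Ntrk3 in rod nuclei of cKO 10 was at 279 CPM, with the other cKO libraries at 115 to 141 CPM. Ntrk3 in Zic1 nuclei of control 4 was at 537 CPM, above 342 to 358 CPM. Ret in Cartpt nuclei of control 1 was at 67.9 CPM, above 47.3 to 48.9 CPM. Cntfr in RGC nuclei of control 2 was at 21.6 CPM, above 20.4 to 20.6 CPM, a small gap in a tight group. Cntfr was lower in Tbr1 nuclei of cKO 12, at 17.1 CPM against 22.8 to 23.5 CPM.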

How the results depend on the processing

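No paired analysis was possible because the genotypes share no replicate number, and the class and type fits already hold the library as a block. Of 446 values under other processing choices 420 kept their direction and side of the threshold. So did 527 of 552 with a library left out. With nuclei thinned to 2000 UMIs after gating, an alternative chosen after seeing the data, 47 of 53 did. A value exists only where the gene was still tested, so results that dropped out of testing are in none of these totals. Member calls between genotypes stayed at 0 in classes and types throughout. Calls of classes against RGC (36) ran from 29 to 37 over alternatives and from 36 to 37 with a library left out. Calls of types against other RGC nuclei (25) ran from 21 to 27 with a library left out, and were 12 when thinned after gating and 1 when thinned before gating, where 10 tests in 2 comparisons remained. The class by genotype term gave 1 call without a filter on low counts and 0 to 0 with a library left out. Neighbouring classes that differed (16) were 0 with the order-of-magnitude step alone, 8 under stricter gates and 8 under either thinning, and 0 to 0 with a library left out, where 7 libraries pass only if 16 pairs reach the smallest p of 0.0156. For cKO against control in RGC nuclei with a library left out, Bdnf ran from -0.046 (without cKO 12, and also below 0 without cKO 13) to 0.18, and Gfra2 from -0.094 to 0.043 (above 0 without control 4 and cKO 11 or 13). Ret turned to -0.000614 when thinned before gating. Of these none was called, and the cause was not tested. Low counts kept Ntf3 out of the tests in types and between genotypes.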

Other observations

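The 6671 nuclei that passed no class gate belong to no comparison above. They had Ntrk2 at 292 ± 18.6 CPM, Ntrk3 at 348 ± 25.0 CPM, Bdnf at 44.8 ± 15.6 CPM and Ret at 35.96 ± 9.39 CPM (SD, n = 8 libraries). Gfra1 was at 27.2 ± 8.46 CPM, Gfra2 at 23.7 ± 9.17 CPM, Cntfr at 31.4 ± 3.75 CPM, Ngfr at 3.74 ± 1.05 CPM and Ntf3 at 1.498 ± 1.21 CPM. These nuclei are 19.1% of all kept and were shallow, with medians of 1068 to 4064 UMIs.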
